A study of Mus musculus with 12 samples.

Results

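The 7 genes described here encode the melanocortin receptors, Mc1r to Mc5r, and the accessory proteins that bind them, Mrap2 and Mrap. They were taken by gene symbol from the 22180 genes measured, and each of the 7 had a single probe set (transcript cluster) named for that gene alone. Mrap2 was chosen by its measured values, because it stood high in the DBA aortic arch against 129, and its differences between strains are therefore given as a description with no test. The other 6 genes were taken because they belong to the same system. Expression was measured on 12 Affymetrix Mouse Gene 2.1 ST arrays, 3 per group: the aortic arch of DBA/2J (DBA) mice, the arch of C57BL/6 (B6) mice, the aortic root of 129S6/SvEvTac (129) mice and the arch of 129 mice. All mice were wild-type males on regular chow, 2 to 5 months old, with no treatment, and each array held RNA from a separate pool of 4 to 6 mice. The root was sampled in 129 mice only, so no strain comparison is given for it. Titles and tissue labels gave the root for its 3 samples and were followed, although another label field of theirs reads arch.

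Melanocortin receptors sit in the cell membrane and respond to peptides cut from pro-opiomelanocortin, namely adrenocorticotropic hormone and the melanocyte-stimulating hormones. They couple through a stimulatory G protein to adenylate cyclase, so that cyclic AMP and protein kinase A carry the signal onward. MRAP is the accessory protein that takes the adrenocorticotropic hormone receptor, the product of Mc2r, to the cell surface, while MRAP2 binds several members of the family, among them the product of Mc4r, and its loss in mice causes obesity. The receptors are best known from the skin (Mc1r), the adrenal cortex and mouse adipocytes (Mc2r), the hypothalamus (Mc3r and Mc4r), and exocrine glands and mouse fat (Mc5r).

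The promoter of Mrap2 is shown because Mrap2 carried the contrast between DBA and the other strains. RefSeq's table for assembly GRCm38.p6 held a window around the gene start for 3 of the 7 genes, Mrap2, Mc1r and Mc3r. The Mrap2 window lies on the plus strand at chr9:87144056-87144355 and runs from 250 bases before to 50 bases after the start. Capitals mark each CG dinucleotide.
Mrap2 promoter: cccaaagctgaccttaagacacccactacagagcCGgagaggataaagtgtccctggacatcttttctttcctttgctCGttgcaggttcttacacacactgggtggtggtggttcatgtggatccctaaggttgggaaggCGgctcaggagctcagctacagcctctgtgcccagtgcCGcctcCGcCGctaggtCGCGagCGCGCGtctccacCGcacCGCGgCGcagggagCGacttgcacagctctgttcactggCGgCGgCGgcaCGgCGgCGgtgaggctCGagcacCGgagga
The window held 24 CG dinucleotides in 300 bases, 3 in its first 150 bases and 21 in its last 150, and its GC content was 62.7%. Among 32851 windows of the same length the median was 7 CG dinucleotides and 52.7% GC, and 80.0% of windows held fewer CG dinucleotides than that of Mrap2. Sequence motifs searched on both strands were the TATA box with the letters TATAAA, the box named for its letters CCAAT, the GC box with the letters GGGCGG, the cAMP response element with the letters TGACGTCA, its shorter core TGACG, which lies within that element, and the E-box with the letters CACGTG. None of these letters occurred in the Mrap2 window, against 13.6%, 37.4%, 35.7%, 1.79%, 20.8% and 7.15% of all windows, in the order listed. The reference is that of a B6 strain, and the DBA and 129 sequences of this window were not used here.

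Median log2 intensity ran from 4.68 to 4.82 over the arrays. The labelled tissue matched its markers, in that 6 smooth muscle genes summed to a signal (linear scale) of 33857 to 38585 and 6 endothelial genes to 6018 to 6714 over the 9 arch arrays, and 0 of these 12 genes passed between any 2 strains. A pair of arch arrays carried transcripts of other organs. B6 arch replicate 1 had a summed signal of 11588 over 6 hepatocyte genes, against 1785 and 2635 on the other B6 arch arrays. DBA arch replicate 2 had 24384 over 6 cardiomyocyte genes, against 750 and 921 on the other DBA arch arrays. DBA arch replicate 2 also had 5861 over 5 lung epithelium genes, against 120 and 70.8 on the other DBA arch arrays, 67.8 to 231 in B6 arch, 58.7 to 65.0 in 129 root and 72.5 to 136 in 129 arch. The files held no detection calls, so 1088 olfactory receptor genes, most of them best known from the nasal epithelium, served as a guide to the dim end of the scale: the 5th to 95th percentiles of their group means ran from 1.73 to 4.33 in DBA arch, 1.68 to 4.28 in B6 arch, 1.68 to 4.28 in 129 root and 1.70 to 4.38 in 129 arch. Probe sets differ in how brightly they report, so a value inside this range does not show that a transcript was missing.

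Mrap2 was bright in DBA arch alone. Its log2 intensities were 7.06, 7.22 and 7.34 in DBA arch, 2.44, 2.53 and 2.42 in B6 arch, 2.94, 3.08 and 2.91 in 129 root, and 2.99, 2.90 and 3.02 in 129 arch. The 3 DBA arrays therefore stood together and above all 9 others, and the DBA array with cardiomyocyte transcripts lay between the other DBA arrays. On the linear scale the lowest DBA value was a signal of 133 and the highest of the 9 other arrays was 8.45, a 15.7-fold gap. The group means were 7.21 ± 0.14 in DBA arch, 2.47 ± 0.06 in B6 arch, 2.97 ± 0.09 in 129 root and 2.97 ± 0.06 in 129 arch (SD, n = 3 each). DBA arch exceeded 129 arch by 4.24 ± 0.11 on the log2 scale and B6 arch by 4.74 ± 0.11 (SE). These SEs do not allow for the choice of the gene by its DBA values, so they describe the spread of the arrays and are no test. In bulk tissue such as this, more cells of a type and more RNA per cell cannot be told apart.

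DBA arch had the highest Mrap2 level, and no order is read among the other 3 groups, whose values all fell inside the olfactory receptor range. There 34.1% of those genes had a lower mean than Mrap2 in B6 arch, 63.3% in 129 root and 57.8% in 129 arch, against 99.9% in DBA arch. Folds of DBA against B6 or 129 can therefore understate the contrast. Within that range the 3 B6 arrays read below all 6 arrays of 129 mice, at a difference of -0.50 ± 0.11 between B6 and 129 arch (SE). Root and arch of 129 mice did not differ in Mrap2 beyond the spread of the pools (log2 difference 0.00 ± 0.09, SE, 95% interval -0.21 to 0.22; adjusted p = 0.984, limma), though the arch arrays of this comparison also entered the choice of the gene.

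**Figure D1:**
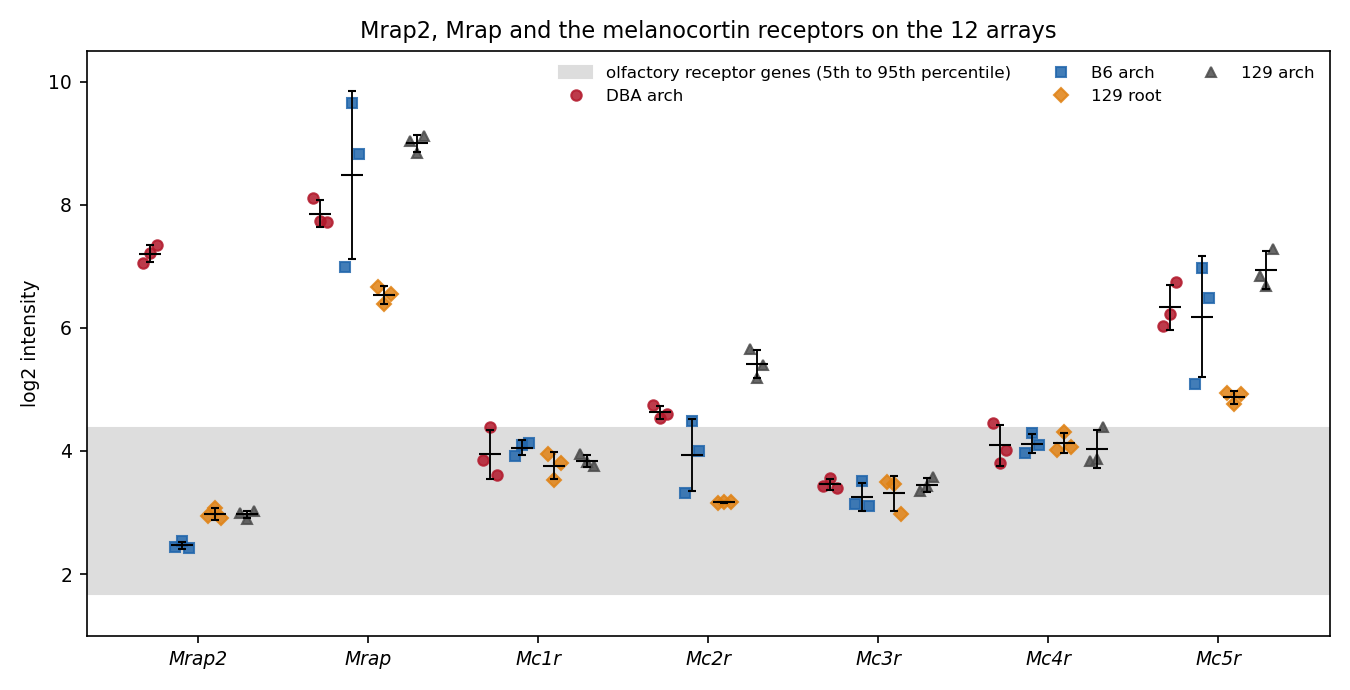
Log2 intensity of the 7 genes on each array (points), with the group mean and SD (bars, n = 3) for DBA arch, B6 arch, 129 root and 129 arch; the grey band spans the lowest 5th and highest 95th percentile of olfactory receptor genes over the groups. Mrap2 sits at 7.06 to 7.34 on the DBA arrays and inside the band on the other 9, while Mrap and Mc5r are low on the 129 root arrays and on 1 of the 3 B6 arrays.

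Markers of neurons and of melanocytes, the cells in which Mc4r and Mc1r are best known, were set beside Mrap2. The 9 measured neuronal genes summed to a signal of 476, 962 and 480 on the DBA arch arrays, against 419, 366 and 415 in B6 arch, 741, 604 and 628 in 129 root, and 431, 579 and 574 in 129 arch. The sum of 962 was that of DBA arch replicate 2, the array with cardiomyocyte and lung epithelium transcripts, where Mrap2 was at 7.22. None of the 9 genes passed between DBA arch and either other strain. Their median log2 difference was 0.21 against 129 arch and 0.65 against B6 arch, beside 0.00 and 0.02 over all genes. Snap25, a synaptic membrane fusion protein, ran from 5.45 to 8.31 in DBA arch, 3.67 to 4.20 in B6 arch, 4.36 to 4.47 in 129 root and 4.29 to 4.69 in 129 arch, so that the DBA arrays stood above all others, at differences of 2.17 ± 0.60 against 129 arch (SE, adjusted p = 0.154) and 2.64 ± 0.60 against B6 arch (adjusted p = 0.0746). Prph, a neuronal intermediate filament, also had DBA arch (5.34 to 6.59) apart from B6 arch (4.36 to 4.92) and 129 arch (4.97 to 5.30). It overlapped with 129 root (5.09 to 5.46). The brightest genes of the list, Stmn2, Uchl1 and Npy, did not share this pattern. Npy was lower in DBA arch than in 129 arch (-1.24 ± 0.27, SE, adjusted p = 0.0666). Against B6 arch it was higher (0.95 ± 0.27, adjusted p = 0.152). Stmn2 differed by -0.04 from 129 arch and 0.51 from B6 arch, and Uchl1 by 0.06 and -0.42. The 10 melanocyte genes summed to 559 to 700 in DBA arch, 603 to 684 in B6 arch, 748 to 779 in 129 root and 693 to 768 in 129 arch. Of these 10, only Gpnmb, a membrane glycoprotein also made by macrophages, passed between DBA and the other strains, and it was lower in DBA (log2 difference -3.20 ± 0.20 against 129 arch and -2.95 ± 0.20 against B6 arch, SE). Its mean signal was 26.4 in DBA arch, 204 in B6 arch, 228 in 129 root and 241 in 129 arch. The DBA sums thus held less Gpnmb signal. Mitf, the brightest gene of the list, had a mean signal of 334, 255, 303 and 268 in the same order. Kit had 109, 77.8, 102 and 129. The median log2 difference over the 10 genes was 0.01 between DBA and 129 arch and -0.06 between DBA and B6 arch. The 5 lung epithelium genes had a median difference of 1.72 between DBA and 129 arch and 1.69 between DBA and B6 arch, with 0 of 5 past the threshold. Their mean log2 intensity was 4.39, 8.63 and 3.79 on the DBA arrays, so that replicate 2 carried these medians. It was 3.74, 3.73 and 4.65 in B6 arch and 3.82, 4.27 and 3.85 in 129 arch. Sftpb, a surfactant protein, did not overlap between DBA (4.26 to 8.16) and B6 arch (3.73 to 4.08) or 129 arch (3.62 to 3.86). Every other gene of the list overlapped in both comparisons. Of all genes, 17.1% did not overlap between DBA and B6 arch and 20.9% between DBA and 129 arch. The 4 thymocyte and T cell genes had a median difference of -1.64 between DBA and 129 arch and -0.20 between DBA and B6 arch, with 0 of 4 past the threshold, and summed to 204 to 407 in DBA arch, 191 to 819 in B6 arch and 656 to 1416 in 129 arch. The 6 cardiomyocyte genes had a median difference of 0.01 between DBA and 129 arch and 1.71 between DBA and B6 arch. Actc1 alone of them passed, higher in DBA than in B6 arch (2.93 ± 0.51, SE, adjusted p = 0.0297, limma). Their mean log2 intensity was 6.20, 11.40 and 6.48 on the DBA arrays. Medians of the 6 hepatocyte genes were -0.06 and -1.50 in the same order, and 0 of 6 passed. Of 6 brown fat genes 1 passed, lower in DBA than in B6 arch. Without both arrays that carried other organs' transcripts Mrap2 in DBA arch exceeded 129 arch by 4.23 and B6 arch by 4.72. The part of any cell type in the Mrap2 contrast was not otherwise tested.

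Genes whose values followed those of Mrap2 most closely over the 12 arrays, among 6795 genes with a range of at least 1 on the log2 scale, were H2-Ea (Pearson r = 0.987), Syt4 (0.985), Mcpt2 (0.984), D5Ertd579e (0.977) and Neto1 (0.976). These correlations describe 12 arrays in 4 groups and rest on the same separation of the DBA arrays from the others. H2-Ea encodes a chain of a class II histocompatibility molecule, and its log2 intensity averaged 9.13 in DBA arch, 3.38 in B6 arch, 3.03 in 129 root and 3.42 in 129 arch. Syt4, a synaptotagmin of vesicle traffic, averaged 5.90 in DBA arch, 3.84 in B6 arch, 3.81 in 129 root and 3.83 in 129 arch. Mcpt2, a mast cell protease, averaged 5.47 in DBA arch, 2.33 in B6 arch, 2.29 in 129 root and 2.51 in 129 arch. D5Ertd579e, unlike these, was bright in every group, at 11.02 in DBA arch, 8.98 in B6 arch, 8.98 in 129 root and 9.23 in 129 arch. Neto1, which binds glutamate receptors, averaged 9.15 in DBA arch, 3.87 in B6 arch, 5.18 in 129 root and 3.98 in 129 arch. Unlike Mrap2, Neto1 passed between 129 root and 129 arch, higher in the root (log2 difference 1.19 ± 0.12, SE, adjusted p = 0.000997, limma). H2-Ea passed there too, lower in the root (-0.39 ± 0.09, adjusted p = 0.0276), with both means inside the olfactory receptor range. Syt4, Mcpt2 and D5Ertd579e did not pass between root and arch. Of the other melanocortin genes with a range of at least 1, Mc2r (r = 0.25), Mc5r (0.16) and Mrap (-0.09) did not follow Mrap2.

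The genes beside Mrap2 on chromosome 9 are given as a description. Mrap2 was chosen for its high value in DBA arch, so smaller differences beside it follow from that choice and are no result about the region. The 5 measured genes on each side, in the order A330041J22Rik, Prss35, Snap91, Ripply2 and Cyb5r4 before it and Cep162, Tbx18, Nt5e, Snx14 and Syncrip after it, were read from the fit over all genes. Between DBA and 129 arch, 1 of the 10 passed the test, against 1.44% of all genes, and their log2 differences ran from -0.98 to 1.33. That gene was Prss35, which encodes a serine protease-like protein, with a mean of 4.65 ± 0.25 in DBA arch and 5.63 ± 0.29 in 129 arch (log2 difference -0.98 ± 0.17, SE, adjusted p = 0.0281), a change opposite in direction to that of Mrap2. With single arrays omitted, 5 of 9 fits lost this call, those without DBA arch replicate 1 or 3, B6 arch replicate 3, or 129 arch replicate 1 or 2 (adjusted p up to 0.120, range over all alternatives 0.00968 to 0.232).

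Both immediate neighbours of Mrap2 were well above the olfactory receptor range in every group. Cyb5r4, a cytochrome b5 reductase, averaged 7.83 ± 0.13 in DBA arch and 7.76 ± 0.21 in 129 arch (SD). Cep162, a protein of the ciliary base, averaged 7.40 ± 0.20 in DBA arch and 6.81 ± 0.06 in 129 arch, did not pass (log2 difference 0.59 ± 0.12, adjusted p = 0.0603), and was at 7.31 ± 0.10 in B6 arch. The largest difference was that of Snap91, a clathrin assembly protein of synapses, at 5.07 ± 1.31 in DBA arch and 3.74 ± 0.35 in 129 arch (log2 difference 1.33 ± 0.53, SE, adjusted p = 0.356), with the DBA arrays spread from 4.16 to 6.57.

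Between DBA and B6 arch, 0 of the 10 neighbours passed, against 1.55% of all genes, with differences from -0.38 to 1.26. Nt5e, the ectonucleotidase that makes adenosine, came closest at 8.96 ± 0.13 in DBA arch and 8.07 ± 0.45 in B6 arch (log2 difference 0.89 ± 0.20, adjusted p = 0.0724). Between B6 and 129 arch 0 of the 10 passed, against 1.45%. Between 129 root and 129 arch 2 of the 10 passed, both higher in the root: Prss35, at 9.08 ± 0.18 in 129 root and 5.63 ± 0.29 in 129 arch (log2 difference 3.45 ± 0.17, adjusted p = 5.46e-05), and Nt5e, at 9.93 ± 0.21 in 129 root and 9.03 ± 0.02 in 129 arch (0.90 ± 0.12, adjusted p = 0.00281). Of all genes 15.8% passed in that comparison.

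**Figure D2:**
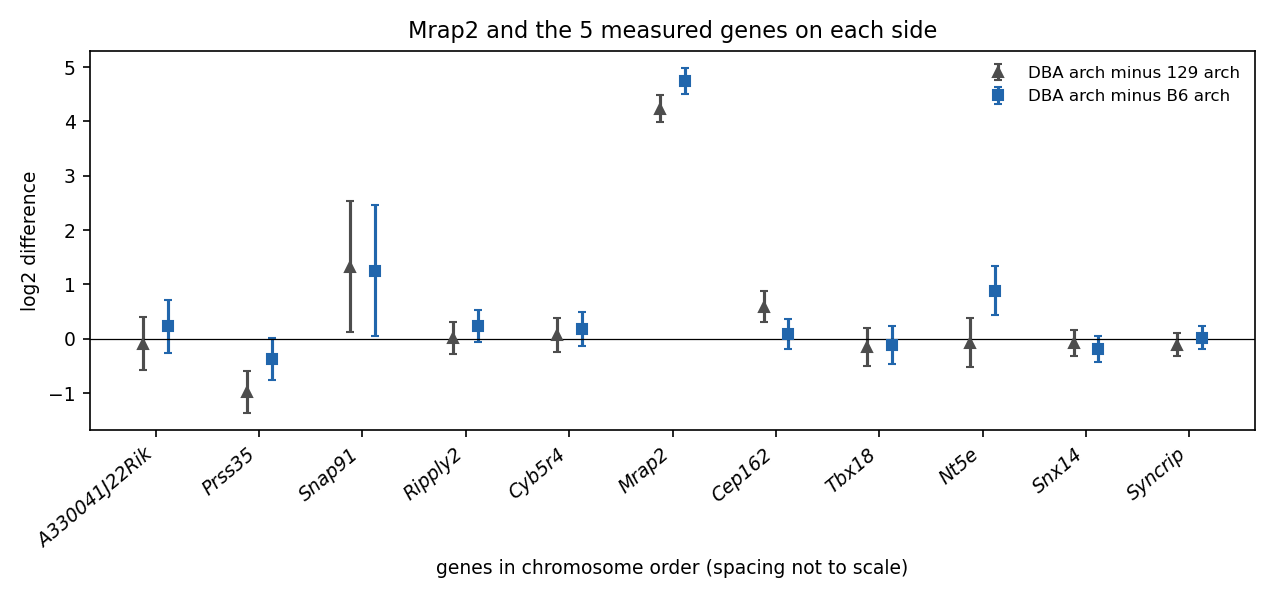
Log2 difference between DBA arch and 129 arch (triangles) and between DBA arch and B6 arch (squares) for Mrap2 and the 5 measured genes on each side of it in chromosome order, with 95% intervals of the model. Mrap2 lies at 4.24 and 4.74, and the 10 neighbours lie between -0.98 and 1.33. Mrap2 was chosen by its DBA values, so this contrast with its neighbours follows from the choice, and its intervals are no test.

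The other accessory protein and the 5 receptors showed few differences between strains. Between DBA and 129 arch 0 of the 6 passed the test, against 1.44% of all genes, and between DBA and B6 arch 0 of the 6, against 1.55%. Between B6 and 129 arch 1 of the 6 passed, Mc2r, which was lower in B6, against 1.45% of all genes called in either direction and 0.636% called lower. The groups did not overlap for 2 of the 6 between DBA and 129 arch (Mrap and Mc2r), 1 between DBA and B6 arch (Mc2r) and 1 between B6 and 129 arch (Mc2r), against 20.9%, 17.1% and 17.5% of all genes in the same order. The median log2 difference over the 6 was -0.29, 0.06 and -0.35 in these comparisons, beside 0.00, 0.02 and -0.02 over all genes. The DBA and B6 comparisons with 129 share the 129 arch arrays.

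**Figure D3:**
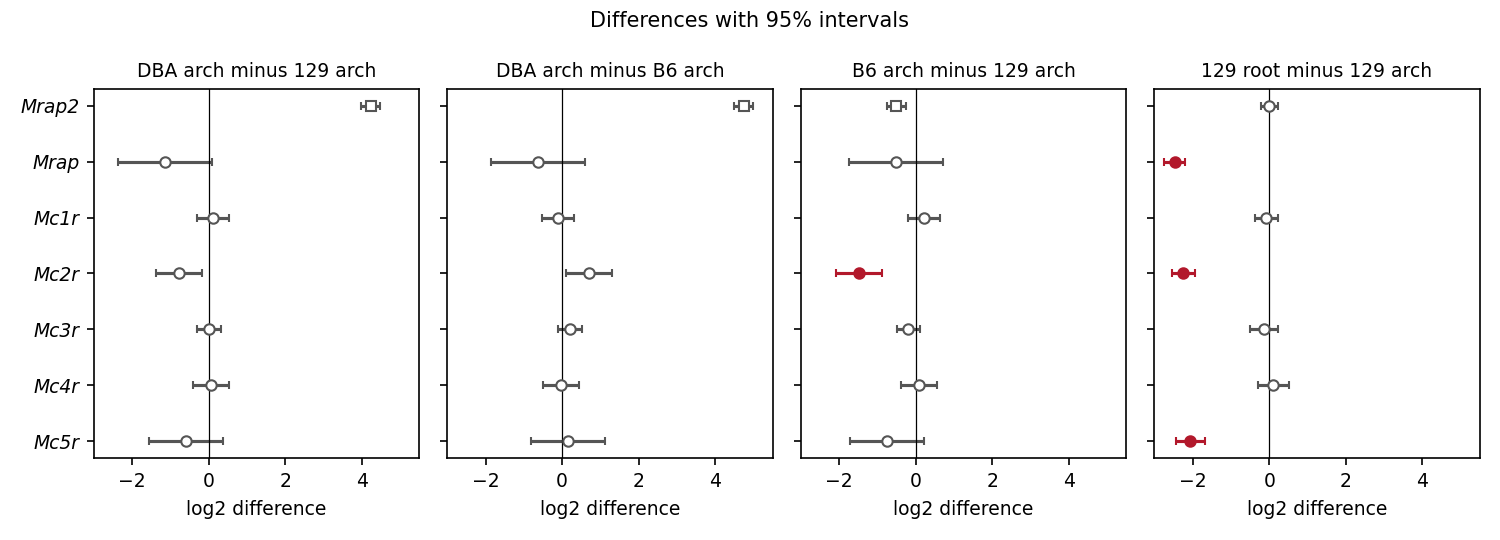
Log2 differences of the 7 genes in the 4 comparisons, with 95% intervals of the model; filled red points passed the test (adjusted p under 0.05), open circles did not, and open squares mark the strain differences of Mrap2, which were not tested. Mc2r passed between B6 and 129 arch, and Mrap, Mc2r and Mc5r passed between 129 root and 129 arch. The strain intervals of Mrap2 do not allow for its choice by its DBA values.

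Mrap, the partner of the adrenocorticotropic hormone receptor, had log2 intensities of 8.10, 7.74 and 7.72 in DBA arch, 6.99, 9.65 and 8.82 in B6 arch, and 9.03, 8.85 and 9.12 in 129 arch. All 3 DBA arrays were below all 3 arrays of 129 arch, while the B6 arrays spanned both. The means were 7.85 ± 0.21 in DBA arch, 8.49 ± 1.36 in B6 arch and 9.0 ± 0.14 in 129 arch (SD, n = 3 each), and the difference between DBA and 129 arch was -1.15 ± 0.54 on the log2 scale (SE, adjusted p = 0.457). The low B6 value was that of replicate 1, the array with hepatocyte transcripts. Without it DBA arch was lower than 129 arch at the same difference of -1.15 (adjusted p = 0.0382) and lower than B6 arch by a difference of -1.38 (adjusted p = 0.0327), against -0.63 ± 0.54 with it (adjusted p = 0.719). Neither passed without both arrays that carried other organs' transcripts, where the differences were -1.09 from 129 arch (adjusted p = 0.0973) and -1.33 from B6 arch (adjusted p = 0.0778). Over all alternatives the adjusted p ran from 0.0134 to 1 against 129 arch and from 0.0173 to 1 against B6 arch.

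Fat transcripts varied with Mrap between arrays. The mean log2 intensity of 9 measured adipocyte genes was 9.84, 9.52 and 9.63 in DBA arch, 8.17, 10.37 and 9.83 in B6 arch, 7.12, 7.51 and 6.85 in 129 root, and 9.98, 10.06 and 9.92 in 129 arch. B6 arch replicate 1 and the 3 root arrays were thus the lowest in both measures. The summed signal of these genes ran from 12719 to 15792 in DBA arch, 5607 to 21022 in B6 arch, 2202 to 3541 in 129 root and 15991 to 18224 in 129 arch, and 0 of the 9 passed between any 2 strains. Relative to the adipocyte mean of its own array, Mrap was at -1.74, -1.78 and -1.91 in DBA arch, -1.19, -0.71 and -1.01 in B6 arch, -0.45, -1.13 and -0.30 in 129 root, and -0.95, -1.21 and -0.80 in 129 arch. On this relative scale all 3 DBA arrays lay below the other 9. With the adipocyte mean as a covariate, a setting added after the data were seen, Mrap was lower in DBA arch than in 129 arch by a log2 difference of -0.77 ± 0.14 (SE, adjusted p = 0.0354) and than in B6 arch by -0.88 ± 0.14 (adjusted p = 0.0173), while the difference between B6 and 129 arch was 0.11. The adipocyte mean of the arch arrays ran from 9.52 to 10.37 apart from B6 arch replicate 1, at 8.17. That array, the one with hepatocyte transcripts, therefore weighs heavily in the covariate fit.

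Mc2r, the receptor of adrenocorticotropic hormone, had log2 intensities of 4.74, 4.54 and 4.61 in DBA arch, 3.31, 4.48 and 4.00 in B6 arch, 3.16, 3.17 and 3.17 in 129 root, and 5.65, 5.18 and 5.40 in 129 arch. The 3 arch groups did not overlap, with 129 highest and B6 lowest, and the root arrays were below every arch array. The means were 4.63 ± 0.10 in DBA arch, 3.93 ± 0.59 in B6 arch and 5.41 ± 0.23 in 129 arch (SD, n = 3 each). B6 arch was lower than 129 arch by a log2 difference of -1.48 ± 0.26 (SE, 95% interval -2.07 to -0.88, adjusted p = 0.0324). This call was close to the threshold: it was lost without DBA arch replicate 1 or 3, B6 arch replicate 3, or any of the 129 arch arrays (adjusted p between 0.0570 and 0.134), and the range over all alternatives was 0.00166 to 0.305. Without both arrays that carried other organs' transcripts the difference was -1.17 (adjusted p = 0.0355), and with the adipocyte mean as a covariate it was -1.21 (adjusted p = 0.00895). The differences of DBA arch from 129 arch, -0.78 ± 0.26 (adjusted p = 0.251), and from B6 arch, 0.70 ± 0.26 (adjusted p = 0.304), did not pass. The B6 mean lay inside the olfactory receptor range, of which 91.0% had a lower mean than Mc2r in B6 arch, against 97.0% in DBA arch and 98.9% in 129 arch.

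Mc5r had log2 intensities of 6.04, 6.23 and 6.74 in DBA arch, 5.08, 6.97 and 6.48 in B6 arch, 4.93, 4.76 and 4.92 in 129 root, and 6.84, 6.68 and 7.28 in 129 arch. The arch groups overlapped, and the low B6 value was again that of replicate 1. The means were 6.34 ± 0.36 in DBA arch, 6.18 ± 0.98 in B6 arch and 6.93 ± 0.31 in 129 arch (SD, n = 3 each). No strain difference passed, with a log2 difference of -0.60 ± 0.43 between DBA and 129 arch (SE, 95% interval -1.57 to 0.38), 0.16 ± 0.43 between DBA and B6 arch (-0.82 to 1.13) and -0.75 ± 0.43 between B6 and 129 arch (-1.73 to 0.22). Without B6 arch replicate 1 the difference was -0.39 between DBA and B6 arch, the direction turned, and -0.21 between B6 and 129 arch, and that between DBA and 129 arch was still -0.60, with none past the threshold.

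In 129 mice, Mrap, Mc2r and Mc5r were all lower in the aortic root than in the arch. These 3 of the 7 genes passed the test, against 15.8% of all genes called in either direction and 7.45% called lower, and the same 3 did not overlap between root and arch, against 35.8% of all genes. Mrap was at 6.67, 6.39 and 6.55 in 129 root and at 9.03, 8.85 and 9.12 in 129 arch, a log2 difference of -2.46 ± 0.12 (SE, adjusted p = 4.68e-05). Mc2r differed by -2.25 ± 0.13 (adjusted p = 9.52e-05) and Mc5r by -2.06 ± 0.16 (adjusted p = 0.000329). All 3 calls held without any one array and under every other setting in which the gene was tested, with the highest adjusted p being 0.00993 for Mrap, 0.00206 for Mc2r and 0.00740 for Mc5r. The root values of Mc2r, 3.16 ± 0.01 (SD), lay inside the olfactory receptor range, so that its difference may be understated. The median difference over the 7 genes was -0.14, beside 0.00 over all genes.

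All 9 adipocyte genes were lower in 129 root than in 129 arch as well, with a median log2 difference of -2.72. Among them were Fabp4, the fatty acid carrier of adipocytes (log2 difference -2.00 ± 0.18, SE), Cidec, a lipid droplet protein (-2.76 ± 0.18), and Pck1, an enzyme of glyceride-glycerol synthesis in fat (-5.25 ± 0.25). Of 6 brown fat genes, 5 were lower in the root, with Ucp1, the uncoupling protein, at -8.28 ± 0.25. Relative to the adipocyte mean of the same array, the 3 genes were not lower in the root: Mrap was at -0.62 ± 0.44 in 129 root and -0.99 ± 0.21 in 129 arch, Mc2r at -4.00 ± 0.33 in 129 root and -4.57 ± 0.28 in 129 arch, and Mc5r at -2.29 ± 0.42 in 129 root and -3.05 ± 0.38 in 129 arch (SD, n = 3 each). The root values of Mc2r lay inside the olfactory receptor range and may have been held up by the dim end of the scale. Its relative value therefore cannot show whether Mc2r fell as far as the adipocyte genes. Thymocyte and T cell genes were also lower in the root, 4 of 4, and 4 of 6 cardiomyocyte genes were higher. The parts of these cell types in the root differences were not tested, and since tissue and cell make-up changed together they cannot be told apart here.

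**Figure D4:**
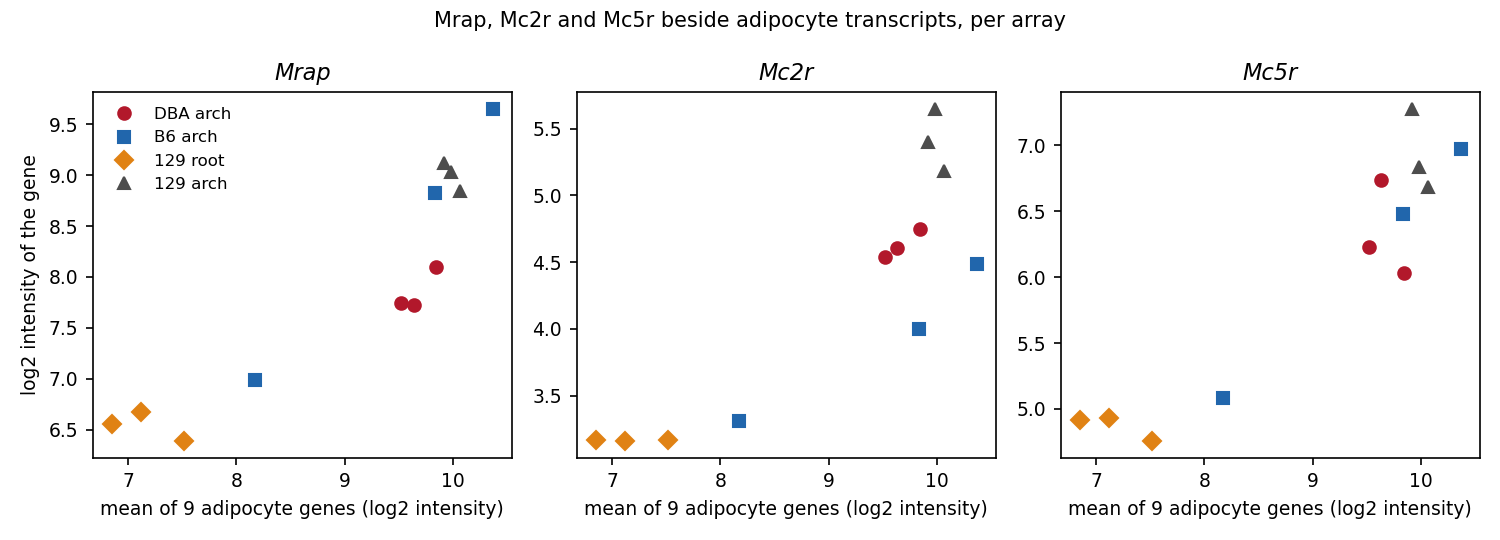
Log2 intensity of Mrap, Mc2r and Mc5r (vertical axes) against the mean log2 intensity of 9 adipocyte genes (horizontal axes), 1 point per array, with DBA arch, B6 arch, 129 root and 129 arch marked by shape. The 3 root arrays and 1 B6 arch array lie at the low end of all 3 plots, and the DBA arrays lie below the other arch arrays of like adipocyte level for Mrap.

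The genes closest in pattern to Mrap over the 12 arrays were Pgd, an enzyme of the pentose phosphate pathway (Pearson r = 0.989), the phosphodiesterase Pde3b (0.985), the acetoacetyl-CoA synthetase Aacs (0.984), the bicarbonate transporter Slc4a4 (0.982) and the adiponectin receptor Adipor2 (0.980). Those closest to Mc5r were the tetraspanin Tspan15 (0.960), the signalling adaptor Sh2b2 (0.957), Klhdc7a (0.957), the lipogenic transcription factor Srebf1 (0.955) and Impdh1, an enzyme of guanine nucleotide synthesis (0.954). Among the same 6795 genes, Mc5r stood at rank 204 for likeness to Mrap (r = 0.93) and Mc2r at rank 571 (r = 0.82). The correlations are given over 12 arrays in 4 groups and share the low root arrays and the low B6 array.

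Markers of the adrenal cortex, where Mc2r and Mrap are best known, were mostly dim in these aortas, though not all lay inside the olfactory receptor range. The 7 measured genes summed to a signal of 90.5 to 98.3 in DBA arch, 99.7 to 118 in B6 arch, 113 to 125 in 129 root and 110 to 118 in 129 arch, and 0 of the 7 passed between strains. The group means of the steroid hydroxylase genes Cyp11b1 and Cyp21a1 and of Hsd3b1 were between 2.23 and 3.11 log2 units, inside that range. Those of Star were above it in every group, from 4.89 in DBA arch to 5.88 in 129 root. Nr5a1 was just above it in DBA arch (4.36), B6 arch (4.40) and 129 arch (4.47), but not in 129 root (4.24). Cyp11a1 was above it in 129 arch alone (4.44). Star, the cholesterol carrier of steroid-making mitochondria, was higher in 129 root than in 129 arch (5.88 ± 0.11 in 129 root and 5.30 ± 0.10 in 129 arch, SD, log2 difference 0.57 ± 0.10, SE, adjusted p = 0.00898), opposite in direction to Mc2r.

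Mc1r, Mc3r and Mc4r were dim in all groups, and none passed the test in any comparison. Mc1r, the receptor of pigment cells, was at 3.85, 4.38 and 3.61 in DBA arch, 3.91, 4.10 and 4.14 in B6 arch, 3.95, 3.53 and 3.81 in 129 root, and 3.94, 3.82 and 3.75 in 129 arch. Mc3r, a hypothalamic receptor, was at 3.42, 3.56 and 3.40 in DBA arch, 3.13, 3.51 and 3.11 in B6 arch, 3.50, 3.46 and 2.98 in 129 root, and 3.34, 3.43 and 3.57 in 129 arch. Mc4r, the receptor through which MRAP2 is best known to act on body weight, was at 4.45, 3.80 and 4.02 in DBA arch, 3.97, 4.29 and 4.10 in B6 arch, 4.01, 4.31 and 4.06 in 129 root, and 3.83, 3.86 and 4.39 in 129 arch. The groups overlapped in every comparison of these 3 genes, and all group means were inside the olfactory receptor range, where between 71.1% and 94.0% of the olfactory genes had a lower mean.

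In numbers, the log2 difference of Mc4r between DBA and 129 arch was 0.06 ± 0.21 (SE, 95% interval -0.41 to 0.53), on arrays where that of Mrap2 was 4.24. In the same comparison the difference was 0.11 ± 0.19 for Mc1r (-0.31 to 0.53) and 0.01 ± 0.13 for Mc3r (-0.29 to 0.32). Between 129 root and 129 arch the differences were -0.07 ± 0.13 for Mc1r (-0.38 to 0.23), -0.14 ± 0.16 for Mc3r (-0.51 to 0.23) and 0.10 ± 0.17 for Mc4r (-0.31 to 0.50). Each interval is for a single gene and does not give the smallest difference that the test, adjusted over all 22180 genes, could detect. Mc2r did not pass between DBA and 129 arch (adjusted p = 0.251, limma), although its interval, -1.37 to -0.19, lay wholly below no change. Whether transcripts of Mc1r, Mc3r and Mc4r were present in the wall cannot be settled from these values.

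The peptide side of the system was dim or even. Of the list of ligands and their processing enzymes 5 genes were measured, and 0 of the 5 passed between strains. Pomc, which encodes the precursor of the melanocortin peptides, was at 2.85, 3.32 and 3.54 in DBA arch, 3.57, 3.26 and 3.24 in B6 arch, 3.20, 3.55 and 2.81 in 129 root, and 3.59, 3.92 and 3.43 in 129 arch, with overlap in every comparison and none passed (adjusted p = 0.484 between DBA and 129 arch, and 0.202 between 129 root and 129 arch). Agouti, the secreted antagonist of Mc1r and Mc4r listed under its symbol a, averaged 3.17 ± 0.10 in DBA arch, 3.28 ± 0.39 in B6 arch, 3.52 ± 0.19 in 129 root and 3.12 ± 0.13 in 129 arch (SD, n = 3 each) and did not pass in any comparison. Cpe, a carboxypeptidase that trims peptide hormones, was bright, at 12.40 ± 0.03 in DBA arch, 12.38 ± 0.10 in B6 arch, 12.29 ± 0.04 in 129 root and 12.33 ± 0.06 in 129 arch. Prcp, which inactivates alpha-melanocyte-stimulating hormone, was the single gene of the list to pass, at 9.73 ± 0.08 in 129 root and 9.14 ± 0.11 in 129 arch (log2 difference 0.59 ± 0.10, SE, adjusted p = 0.00699). Of all genes 15.8% passed between root and arch. Attractin (Atrn), its relative Atrnl1 and the ubiquitin ligase Mgrn1, which take part in agouti or melanocortin receptor signalling in mice, gave 0 of 3 calls in every comparison.

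Among other receptors reported to bind MRAP2, namely the ghrelin receptor Ghsr, the prokineticin receptors Prokr1 and Prokr2 and the orexin receptor Hcrtr1, 0 of 4 passed between strains. Prokr1 was at 6.33 ± 0.31 in DBA arch, 5.81 ± 0.31 in B6 arch and 5.59 ± 0.22 in 129 arch (SD), a log2 difference of 0.73 ± 0.21 between DBA and 129 arch that did not pass (SE, adjusted p = 0.163). It was lower in 129 root, at 5.06 ± 0.01, than in 129 arch (log2 difference -0.53 ± 0.12, adjusted p = 0.0277). Omitting 129 arch replicate 3 or any root array ended this call (adjusted p up to 0.0912, range over all alternatives 0.0123 to 0.101). Ghsr averaged 4.52 ± 0.22 in DBA arch, 3.98 ± 0.29 in B6 arch, 4.15 ± 0.05 in 129 root and 4.40 ± 0.14 in 129 arch.

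Of the transducers that carry the melanocortin signal, from the G protein subunit Gnas through adenylate cyclases to protein kinase A, Creb1 and the arrestins, 18 genes were measured. A single one passed between strains: Adcy1, a calmodulin-stimulated adenylate cyclase, averaged 5.59 ± 1.10 in DBA arch and 5.27 ± 0.10 in B6 arch, against 9.70 ± 0.20 in 129 arch (SD, n = 3 each; adjusted p = 0.00256 and 0.00184). Both calls were lost under the Tukey-Kramer test of the study's methods when its p values were also adjusted over all genes (adjusted p = 0.0955 and 0.0840). They held under every other alternative. Adcy1 was thus low in DBA, where Mrap2 was bright, and low in B6, where Mrap2 was dim. Of all genes 1.44% passed between DBA and 129 arch, 1.55% between DBA and B6 arch and 1.45% between B6 and 129 arch. The difference of Adcy5 between DBA and 129 arch was 0.03 ± 0.10 (SE). The group means of Gnas ran from 5.04 in 129 root to 5.34 in 129 arch, below the median of all genes (5.63). Clusters naming several genes were not used, so other Gnas transcripts may have gone unread.

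The root of 129 mice had 4 of the 18 transducers higher and 2 lower than the arch, against 15.8% of all genes called in either direction and 7.45% called lower. Higher were Adcy2 (log2 difference 1.82 ± 0.11, SE, adjusted p = 0.000134) and the protein kinase A regulatory subunit Prkar1b (1.13 ± 0.11, adjusted p = 0.000818), besides Adcy4 (0.50 ± 0.11, adjusted p = 0.0195) and the arrestin Arrb1 (0.57 ± 0.12, adjusted p = 0.0184). The calls of Adcy4 and Arrb1 were lost without any of the root arrays (adjusted p up to 0.0769 and 0.0684). Lower were Prkar2b, the regulatory subunit prominent in fat (-3.63 ± 0.12, adjusted p = 1.11e-05), and the catalytic subunit Prkaca (-0.35 ± 0.09, adjusted p = 0.0354, lost without any 1 of the 6 arrays). Prkar2b was at 7.17 ± 0.06 in 129 root and 10.80 ± 0.20 in 129 arch (SD), and in B6 arch it spread from 8.19 to 11.36, as did Mrap and the adipocyte genes. The median difference over the 18 transducers was 0.03 between root and arch, beside 0.00 over all genes.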

How the data were processed

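RNA was measured in 12 pools of mouse aorta. The authors hybridised 250 ng of total RNA per pool to Affymetrix Mouse Gene 2.1 ST arrays and used Affymetrix Expression Console. The deposited values are normalised log2 intensities, 1 per transcript cluster and array; for the summarisation method, its version and the genome build the sources used here say nothing. Values between 0.668 and 13.6 showed the log base. No detection calls were used, and the number of arrays limits the precision.

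Of 41345 clusters, 23521 carried 1 gene symbol in the platform annotation, 1820 several and 16004 none. Clusters with 1 symbol were used, the one with the highest mean standing for its gene (22180 genes, 1082 with more than 1 cluster; 21994 matched the RefSeq gene table of GRCm38.p6 by gene identifier). Each of the 7 genes had 1 cluster. Dim genes were kept.

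Strains were compared over the 9 arch arrays in 1 limma 3.58.1 fit (R 4.3.3, lmFit and eBayes), and 129 root with 129 arch over 6 arrays, two-sided, with Benjamini-Hochberg adjustment over all 22180 genes and a threshold of 0.05. Adjusted p values are limma's, except those of the Tukey-Kramer test. These were adjusted in the same way, a step the study's methods do not describe. "Passed" and "called" refer to that threshold, and a difference given with neither word nor an adjusted p is a value with no verdict, as are the strain differences of Mrap2, which have no test. Each p value measures spread among pools of mice. Differences are of log2 values with model SE; signal is on the linear scale.

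The genes, the marker and pathway lists, the naming rule and the settings were chosen with earlier results of these data known. Named genes were the 7, every pathway gene past the threshold and up to 3 brighter ones per list, up to 3 bright markers per cell type list, the 5 genes closest in Pearson r to Mrap2, Mrap and Mc5r, and the 5 measured neighbours on each side of Mrap2. Pomc, agouti, Gnas, Ghsr, Gpnmb, Snap25, Prph, Sftpb, Cyp11b1, Cyp21a1 and Hsd3b1 were named besides, after their values were seen. On simulated data over 22180 genes the DBA against 129 fit called 68 of 100 genes changed by 1 and 90 of 100 changed by 2 on the log2 scale (14 false calls); the root fit called 69 and 99 of 100 (7 false calls). Alternatives were omission of dim genes, quantile normalisation, median centring, a trended robust prior, array weights, all 12 arrays in 1 fit, averaging the clusters of a gene, a replicate block, omission of each array or of both arrays with other organs' transcripts, the 6 arrays of a contrast alone, the Tukey-Kramer test of the study's methods and, added after seeing the data, an adipocyte covariate.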

Additional observations from a re-analysis of the deposited data

How the results depend on the processing

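The strain differences of Mrap2 ran over all alternatives from 4.17 to 4.31 between DBA and 129 arch, 4.67 to 4.82 between DBA and B6 arch and -0.54 to -0.48 between B6 and 129 arch. The number of the other 6 genes called was 1 in place of 0, Mrap, between DBA and 129 arch with the 6 arrays of the contrast alone (adjusted p = 0.0134, limma), without B6 arch replicate 1 or with the adipocyte covariate, and between DBA and B6 arch in the last 2 of these settings; over single arrays left out both counts ran from 0 to 1. Between B6 and 129 arch it was 0 in place of 1 with the 6 arrays alone, the Tukey-Kramer test, a replicate block or the dim filter, which removed Mc2r from the test, and 0 to 1 over single arrays left out. Replicate numbers were shared by the labels of all groups. Deviations of same-numbered arrays correlated at -0.09 to 0.16 (median 0.05, 18 pairs). Those of other-numbered arrays correlated at -0.14 to 0.13 (median -0.02, 36 pairs). These values do not settle whether the numbers pair the pools, and the main fits used no pairing. The block changed the Mc2r call between B6 and 129 arch (adjusted p = 0.0983, 0 genes called) and no other call of the 7 genes. Mrap between B6 and 129 arch was at 0.24 without both arrays with other organs' transcripts and at 0.11 with the adipocyte covariate (-1.09 to 0.24 over single arrays left out). The causes of these changes were not tested.

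The remaining changes of sign were of differences near 0, none past the threshold. Mrap2 between root and arch was at -0.11 with median centring and -0.0088 with array weights (-0.049 to 0.038 over single arrays left out). Between DBA and 129 arch Mc3r was at -0.038 with median centring and without both arrays, and -0.0097 with array weights, and Mc1r at -0.11 without both arrays. Between DBA and B6 arch Mc5r was at -0.12 with array weights, -0.34 without both arrays and -0.013 with the covariate, and Mc4r at 0.040 without both arrays. Between root and arch Mc1r was at 0.0021 after quantile normalisation and Mc4r at -0.013 with median centring. Over single arrays left out, ranges were -0.11 to 0.28 for Mc1r, -0.039 to 0.075 for Mc3r and -0.12 to 0.24 for Mc4r (DBA arch against 129 arch), -0.32 to 0.067 for Mc1r, -0.21 to 0.12 for Mc4r and -0.39 to 0.55 for Mc5r (DBA arch against B6 arch), -0.0071 to 0.27 for Mc4r (B6 arch against 129 arch), -0.17 to 0.044 for Mc1r and -0.23 to 0.031 for Mc3r (129 root against 129 arch). All-gene counts of calls were 320 between DBA and 129 arch, 344 between DBA and B6 arch, 322 between B6 and 129 arch and 3508 between root and arch, against 73, 81 and 57 by Tukey-Kramer, 568, 671, 595 and 2212 with all 12 arrays in 1 fit, 517, 1348, 1412 and 3557 with array weights, 217, 186, 186 and 2812 with the block, 128 (DBA and B6) and 190 (B6 and 129) with the 6 arrays alone, 627 (DBA and B6) with the covariate, and 116 to 510 in the strain comparisons over single arrays left out. Median centring moved every root difference by -0.11 and the split of root calls to 1348 higher and 2589 lower, against 1855 higher and 1653 lower. Dim values limit Mrap2 outside DBA and Mc1r, Mc3r and Mc4r throughout.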
